A study of Mus musculus with 6 samples.

Results

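Fatty acid oxidation was followed through 38 genes of the mitochondrial and peroxisomal routes in collagenase-released cells, isolated as mammary epithelial cells, of pregnant mice whose insulin receptor gene carries loxP sites. The genes were selected by their exact symbol in the deposited expression table, and 34 of the 38 had a probe set that named them alone, 36 probe sets in all of 28853 on the array. The tested mice were 3 IRfl/fl Cre+ females (numbered 5, 6 and 7), in which a BLG promoter, that of the milk protein gene beta-lactoglobulin, drives Cre recombinase. They were compared with 3 IRfl/fl Cre- females (1, 2 and 4), which carry the same floxed receptor gene without Cre. All females had been mated to CD1 males, and cells were taken on day 13.5 of pregnancy, with 1 Affymetrix MoGene 1.0 ST array for each mouse. The study has no group with Cre and an unfloxed receptor. The BLG promoter is a milk protein promoter, and which cells had recombined was not measured here. The labels give neither age nor genetic background, batch or litter. They state 3 mice of each strain, so n below counts mice.

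Beta-oxidation shortens fatty acids by cycles of dehydrogenation, hydration, a second dehydrogenation and thiolysis. Long chains enter mitochondria as carnitine esters and give electrons to the respiratory chain, whereas peroxisomes take very long, branched and dicarboxylic chains, shorten them and pass the products on. PPAR nuclear receptors switch on genes of both routes in liver, and in mammary epithelium the lactating gland is better known for making fat than for burning it.

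Values are robust multi-array average intensities on a linear scale, as deposited, and changes are Cre+ minus Cre- on the log2 scale with the standard error (SE) of a limma fit over the whole table. A gene was said to have risen or fallen only at an adjusted p under 0.05 over 16921 tested probe sets. The first probe set of the targeted gene, Insr (10576692), read 55.2, 47.7 and 71.2 on the Cre+ arrays 5, 6 and 7, against 106, 104 and 122 on the Cre- arrays 1, 2 and 4, a fall of 0.95 (SE 0.15, adjusted p = 0.0231). Its second probe set (10576696) read 56.2, 53.6 and 61.2 in Cre+ cells, against 80.4, 77.6 and 86.7 in Cre- cells, a smaller fall of 0.52 (SE 0.09, adjusted p = 0.0285). Where the probes of either lie relative to the deleted part is not given. The 6 arrays had medians between 28.4 and 29.3 and correlated with each other at 0.969 to 0.993 over the tested probe sets, a description over probe sets that share 1 normalization. On the second principal component, with 33.6% of the variance, Cre- 1 (-21.1) and Cre+ 7 (-13.7) stood apart from the other 4 arrays (3.06 to 14.6), so counts are also given without both.

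Genes of the carnitine shuttle, of the last mitochondrial step and of the peroxisomal route fell in Cre+ cells, by 1.38-fold (Hsd17b4) to 2.33-fold (Ehhadh). Of 33 tested members, 8 fell, 1 rose and 24 did not pass the test. The genes that fell were Cpt1a, Cpt2, Slc25a20, Hadhb, Acaa2, Ehhadh, Hsd17b4 and Abcd3, and the gene that rose was Abcd2. The members that fell made up 24.2% of those tested and the member that rose 3.03%, while over all tested probe sets 2.14% fell and 2.03% rose (4.17% in either direction). The list was drawn up with results of this same comparison known, so its count is a description and carries no test. Of the 33, 28 (84.8%) had a change below 0, against 48.4% of all tested probe sets, and the median change was -0.30, against 0.00 over all tested probe sets. The groups did not overlap at 23 members, against 25.7% of all tested probe sets, and 14 of the 23 were still not called. Cre+ was on the lower side at 22 members (66.7% of those tested), against 12.7% of all tested probe sets. It was on the upper side at 1 member, against 12.9% of all tested probe sets. At an unadjusted p under 0.05, 21 members were lower and 1 higher, against 9.83% and 10.2% of all tested probe sets. By the p-values in the authors' deposited table, 14 members had a ratio below 1 and 1 a ratio above 1 at p under 0.05, but 0 passed Benjamini-Hochberg adjustment over the same probe sets.

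**Figure D1:**
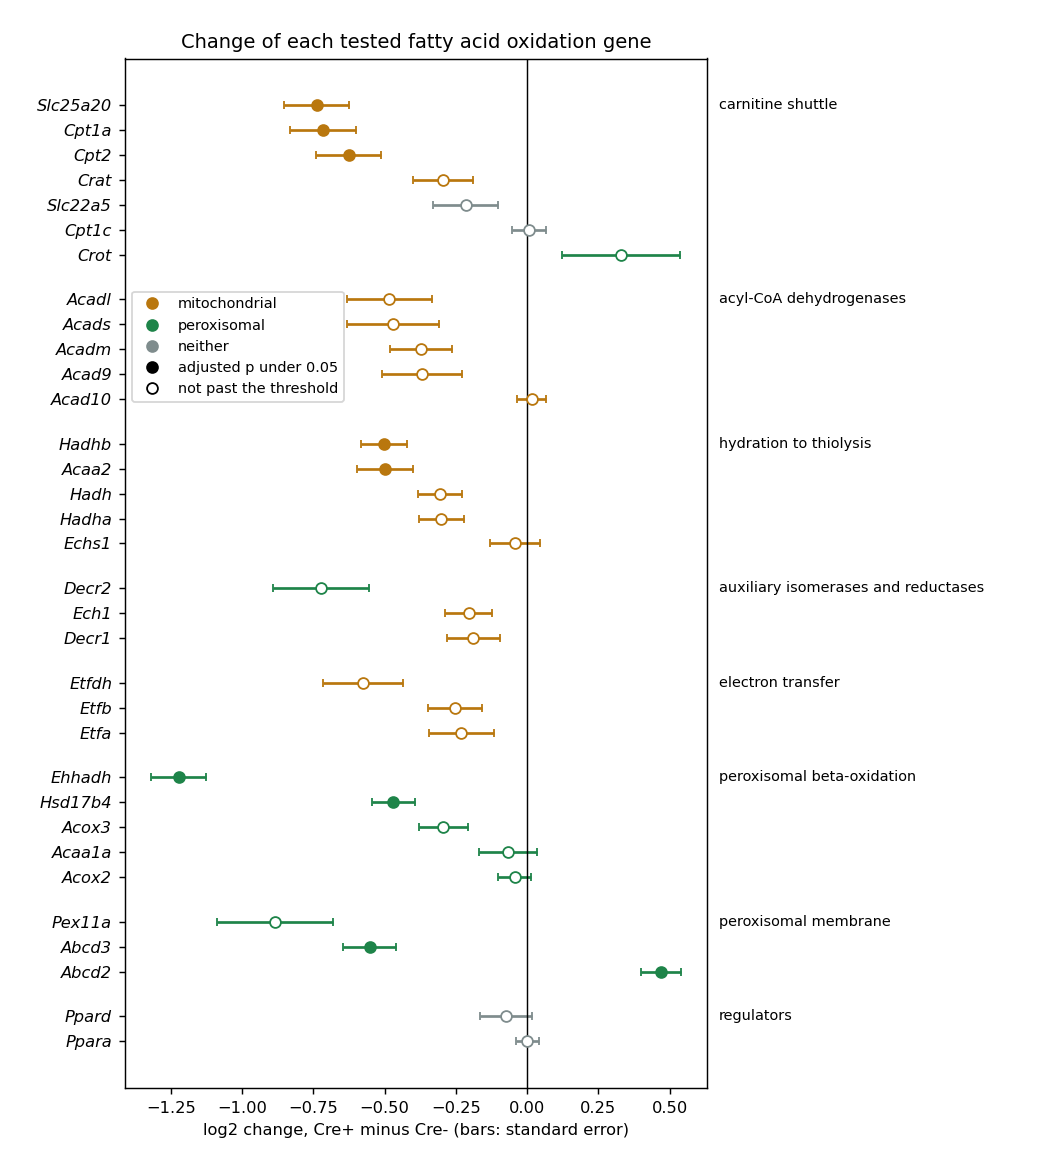
Log2 change (x axis, Cre+ minus Cre-, bars are the standard error, 3 mice per group) of each of the 33 tested genes, grouped by role and coloured by organelle, filled where the adjusted p was under 0.05. Most points lie left of 0, Ehhadh farthest at -1.22, and Abcd2 is the filled point to the right at 0.47.

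The number that fell depended on single arrays, as did the count over all genes. Leaving out Cre+ 5, Cre+ 6 or Cre- 2 left 1 gene, Ehhadh, while the calls over all probe sets were 46 without Cre+ 5, 41 without Cre+ 6 and 118 without Cre- 2, against 706 with all arrays. Leaving out Cre+ 7 kept Ehhadh and Hsd17b4 (290 calls over all probe sets), and leaving out Cre- 4 kept Ehhadh and Slc25a20 (264). With Cre- 1 left out, 12 members fell (780 calls), the added genes being Acadm, Decr2, Etfdh and Pex11a. Without Cre- 1 and Cre+ 7 together 13 members fell, with 952 calls over all probe sets (2.95% of those tested lower). The Abcd2 rise held only where Cre- 1 or Cre- 4 was the array left out.

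In the carnitine shuttle, 3 of 7 tested genes fell, all mitochondrial. Slc25a20, the carnitine-acylcarnitine translocase of the inner membrane, read 100.2, 107 and 98.1 on the Cre+ arrays, against 159, 154 and 199.9 on the Cre- arrays. The Cre+ values lay close together and well below the lowest Cre- array, a fall of 0.74 (SE 0.11), 1.67-fold, with adjusted p = 0.0206. Cpt1a, the outer-membrane carnitine palmitoyltransferase at which malonyl-CoA controls entry, read 53.7, 68.2 and 61.5 in Cre+ cells, against 95.9, 93.9 and 111 in Cre- cells. The groups did not overlap, and Cpt1a fell by 0.72 (SE 0.12), 1.64-fold, adjusted p = 0.0240. Cpt2, the inner-membrane partner that regenerates acyl-CoA, read 67.6, 81.6 and 69.9 in Cre+ cells, against 101, 111 and 126 in Cre- cells. It fell by 0.63 (SE 0.11), 1.54-fold, adjusted p = 0.0315. With 1 array left out in turn, the adjusted p lay between 0.0199 and 0.0883 for Slc25a20, between 0.0268 and 0.0873 for Cpt1a and between 0.0241 and 0.121 for Cpt2, and the changes kept their sign.

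The other shuttle genes were not called. Crat, the short-chain carnitine acetyltransferase of mitochondria and peroxisomes, read 86.5, 109 and 94.2 in Cre+ cells, against 115, 126 and 112 in Cre- cells (change -0.30, SE 0.11, adjusted p = 0.170). Slc22a5, the plasma membrane carnitine transporter, read 45.8, 44.2 and 34.8 in Cre+ cells, against 48.3, 47.3 and 48.3 in Cre- cells (-0.22, SE 0.11, adjusted p = 0.345). For both genes the groups did not overlap, though by narrow gaps. Crot, the peroxisomal carnitine octanoyltransferase that exports shortened chains, read 44.3, 41.8 and 62.1 in Cre+ cells, against 50.1, 37.7 and 30.7 in Cre- cells, and its groups overlapped (0.33, SE 0.21, adjusted p = 0.438). Cpt1c, a neuronal relative of Cpt1a with little transferase activity, stayed between 25.2 and 29.4 on the Cre+ arrays and between 26.5 and 27.3 on the Cre- arrays, near the filter level of 22.4. Cpt1b, the muscle form of the outer-membrane enzyme, shares its probe set's label with a second name and was not assigned a value.

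**Figure D2:**
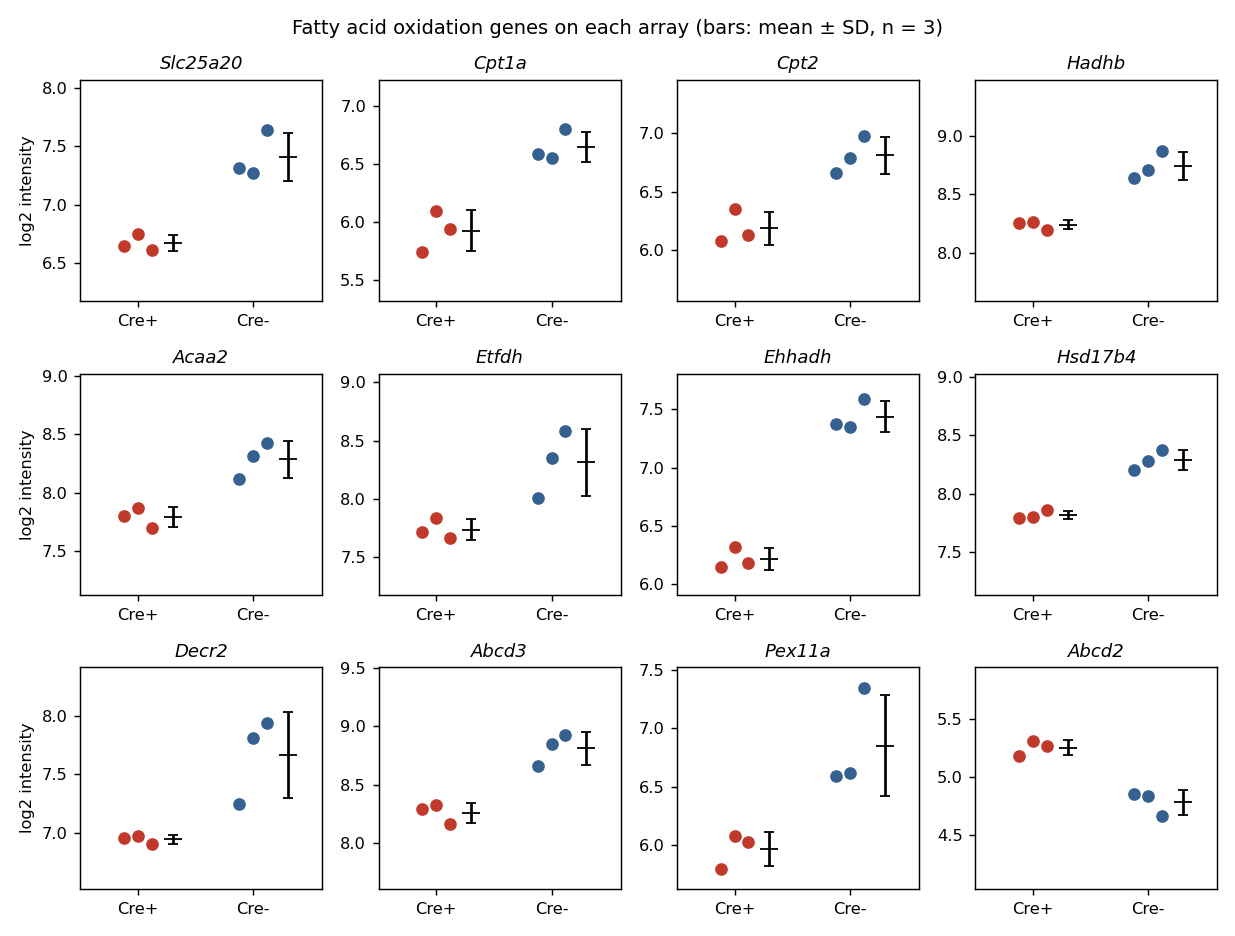
Log2 intensity (y axis, each panel spanning the same range of 1.9) of 12 members on the 3 Cre+ arrays and the 3 Cre- arrays, points being mice and bars the mean ± SD. The groups are separate in all 12 panels, Decr2, Pex11a and Etfdh have wide Cre- spreads, and Abcd2 is the panel with Cre+ on top.

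None of the 5 tested acyl-CoA dehydrogenases, which catalyse the first step of each mitochondrial cycle for different chain lengths, passed the test, although 4 had non-overlapping groups. Acadl, the long-chain enzyme, read 187, 166 and 232 in Cre+ cells, against 234, 267 and 315 in Cre- cells (-0.48, SE 0.15, adjusted p = 0.122). Acads, the short-chain enzyme, read 165, 230.4 and 143 in Cre+ cells, against 234, 242 and 257 in Cre- cells (-0.47, SE 0.16, adjusted p = 0.158). Acadm, the medium-chain enzyme, read 218, 214 and 224 in Cre+ cells, against 240.2, 298 and 315 in Cre- cells (-0.37, SE 0.11, adjusted p = 0.107). In each of these genes 1 array came near the other group, Cre+ 7 for Acadl, Cre+ 6 for Acads and Cre- 1 for Acadm. Acad9, which also assembles respiratory complex I, read 377, 349.8 and 327 in Cre+ cells, against 383, 432 and 562 in Cre- cells (-0.37, SE 0.14, adjusted p = 0.192). Acad10 had a difference of 0.02 (SE 0.05) with readings between 26.8 and 29.5 on all arrays. Acadvl and Acad11 share their probe sets' labels with other gene names and were not assigned values.

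Of the 5 genes for hydration, the second dehydrogenation and thiolysis, 2 fell. Hadhb encodes the thiolase subunit of the mitochondrial trifunctional protein. Its brighter probe set (10474379) read 306, 307 and 292 in Cre+ cells, against 399, 417 and 469 in Cre- cells, a fall of 0.50 (SE 0.08), 1.42-fold, adjusted p = 0.0241. Its other probe set (10520467) fell by 0.52 (SE 0.08, adjusted p = 0.0217), and in neither did the groups overlap. Acaa2, the thiolase for medium and short chains, read 223, 233 and 207 in Cre+ cells, against 277, 319 and 345 in Cre- cells, a fall of 0.50 (SE 0.10), 1.41-fold, adjusted p = 0.0387. With 1 array left out in turn, the adjusted p lay between 0.0221 and 0.0924 for Hadhb and between 0.0207 and 0.140 for Acaa2.

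Hadh, the hydroxyacyl-CoA dehydrogenase for medium and short chains, read 402, 403 and 363 in Cre+ cells, against 456, 500.1 and 487 in Cre- cells (-0.30, SE 0.08, adjusted p = 0.0734). Hadha, the other subunit of the trifunctional protein, had almost the same change and did not pass either (-0.30, SE 0.08, adjusted p = 0.0816). Its readings were 435, 398 and 419 in Cre+ cells, against 475, 540.4 and 529 in Cre- cells, without overlap. Echs1, the enoyl-CoA hydratase of short chains, showed overlapping groups and a change of -0.04 (SE 0.09), with readings of 139, 159 and 139.6 in Cre+ cells, against 146, 159 and 145 in Cre- cells.

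The auxiliary enzymes, which let chains with double bonds pass through the spiral, were led by a peroxisomal one. Decr2, the peroxisomal dienoyl-CoA reductase, read 124, 126 and 119 in Cre+ cells, against 151, 225 and 245 in Cre- cells. The Cre+ arrays were tight (SD 0.04 on the log2 scale) and the Cre- arrays spread widely (SD 0.37), and the change of -0.72 (SE 0.17) missed the threshold at adjusted p = 0.0591. With 1 array left out in turn, Decr2 passed only without Cre- 1, the lowest of its group (adjusted p = 0.00701), and reached 0.188 at most with another array left out. It also passed with array weights and without Cre- 1 and Cre+ 7 together. The mitochondrial reductase Decr1 read 72.5, 83.3 and 77.5 in Cre+ cells, against 82.6, 94.1 and 88.9 in Cre- cells, with overlapping groups (-0.19, SE 0.09, adjusted p = 0.315). Ech1, the dienoyl-CoA isomerase found in both organelles, read 297, 294 and 293 in Cre+ cells, against 310.1, 344 and 368 in Cre- cells (-0.20, SE 0.08, adjusted p = 0.217). Eci1, the mitochondrial enoyl-CoA isomerase, had no probe set under that symbol. A probe set under its older symbol Dci, which falls outside the selection, changed by -0.11 (SE 0.12, adjusted p = 0.690).

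The electron transfer flavoprotein accepts electrons from all acyl-CoA dehydrogenases and hands them to its quinone oxidoreductase in the inner membrane. Etfdh, the oxidoreductase gene, read 210.4, 228 and 202 in Cre+ cells, against 257, 326 and 383 in Cre- cells (-0.58, SE 0.14, adjusted p = 0.0669). The groups were separate, but the Cre- arrays again spread widely (SD 0.29). The flavoprotein subunit genes were not called either. Etfb read 198, 208 and 184 in Cre+ cells, against 223, 262 and 219 in Cre- cells (-0.25, SE 0.10, adjusted p = 0.190), and Etfa read 485, 444 and 373 in Cre+ cells, against 459, 520.1 and 543 in Cre- cells (-0.23, SE 0.11, adjusted p = 0.319), where Cre+ 5 exceeded Cre- 1.

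The peroxisomal genes held both the steepest fall and the only rise. Ehhadh, the bifunctional hydratase and dehydrogenase for dicarboxylic and other chains and a classical PPAR alpha target in rodent liver, read 71.0, 80.0 and 72.5 in Cre+ cells, against 166, 163 and 193 in Cre- cells. The groups were far apart for their spread, and Ehhadh fell by 1.22 (SE 0.10), 2.33-fold, adjusted p = 0.00303. It passed whichever array was left out (adjusted p between 0.00602 and 0.0275, change between -1.27 and -1.15), and the ratio in the authors' deposited table was 0.43. Hsd17b4, the bifunctional enzyme of branched and very long chains, read 222, 223 and 232 in Cre+ cells, against 294, 311 and 332 in Cre- cells, a fall of 0.47 (SE 0.08), 1.38-fold, adjusted p = 0.0236. The groups did not overlap, but with 1 array left out the adjusted p ranged from 0.0233 to 0.0962.

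The oxidases and the thiolase of the same organelle were not called. Acox3, an oxidase of branched chains, read 47.6, 51.6 and 54.2 in Cre+ cells, against 65.0, 61.7 and 61.2 in Cre- cells (-0.29, SE 0.09, adjusted p = 0.107), without overlap. Acox2, the oxidase of bile acid intermediates, and Acaa1a, a thiolase, had overlapping groups and changes of -0.04 (SE 0.06) and -0.07 (SE 0.10).

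In the peroxisomal membrane, the transporters Abcd3 and Abcd2 changed in opposite directions. Abcd3, which imports long branched and dicarboxylic acyl-CoA, read 313, 320.0 and 286 in Cre+ cells, against 403, 462 and 486 in Cre- cells, a fall of 0.55 (SE 0.09), 1.47-fold, adjusted p = 0.0254. Abcd2, a transporter of very long and polyunsaturated chains, read 36.3, 39.7 and 38.5 in Cre+ cells, against 28.9, 28.6 and 25.3 in Cre- cells, a rise of 0.47 (SE 0.07), 1.38-fold, adjusted p = 0.0197. All its readings lay above the filter level of 22.4 in both groups, though not far above it. With 1 array left out in turn, the adjusted p lay between 0.0152 and 0.102 for Abcd3 and between 0.0193 and 0.0783 for Abcd2. Pex11a, which promotes peroxisome division and responds to PPAR alpha activators in rodent liver, read 55.6, 67.3 and 65.2 in Cre+ cells, against 96.3, 97.9 and 163 in Cre- cells. The groups were separate, with Cre- 4 far above the rest, and the change of -0.89 (SE 0.20) missed the threshold at adjusted p = 0.0556.

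None of the 2 tested regulators was called (0 at an unadjusted p under 0.05). Ppard, the widely expressed PPAR, read 94.0, 79.4 and 85.9 in Cre+ cells, against 86.9, 93.9 and 91.9 in Cre- cells (-0.08, SE 0.09, adjusted p = 0.722). Ppara, the PPAR of liver, read 25.9, 24.9 and 23.8 in Cre+ cells, against 24.0, 25.3 and 25.1 in Cre- cells (0.00, SE 0.04, adjusted p = 0.994). Both probe sets of Ppargc1a, a coactivator of mitochondrial genes, lay below the filter level and were not tested, with readings between 19.8 and 22.3 over all 6 arrays.

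By organelle, the medians were alike and the scatter was not. The 19 tested mitochondrial genes had a median change of -0.37 and ranged from -0.74 (Slc25a20) to 0.02 (Acad10), with an SD of 0.21 across genes, and 5 fell and 0 rose (at an unadjusted p under 0.05, 15 and 0). The 10 peroxisomal genes had a median of -0.38 and ranged from -1.22 (Ehhadh) to 0.47 (Abcd2), with an SD of 0.53 across genes, and 3 fell and 1 rose (at an unadjusted p under 0.05, 6 and 1). Both sets were lower on all 3 Cre+ arrays than on all 3 Cre- arrays. Relative to each gene's mean over the 6 arrays, the mitochondrial genes averaged -0.21, -0.12 and -0.24 on Cre+ 5, 6 and 7, against 0.07, 0.20 and 0.29 on Cre- 1, 2 and 4. For the peroxisomal genes the same averages were -0.22, -0.14 and -0.16 on the Cre+ arrays, against 0.11, 0.17 and 0.24 on the Cre- arrays. No difference between the organelles was tested.

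**Figure D3:**
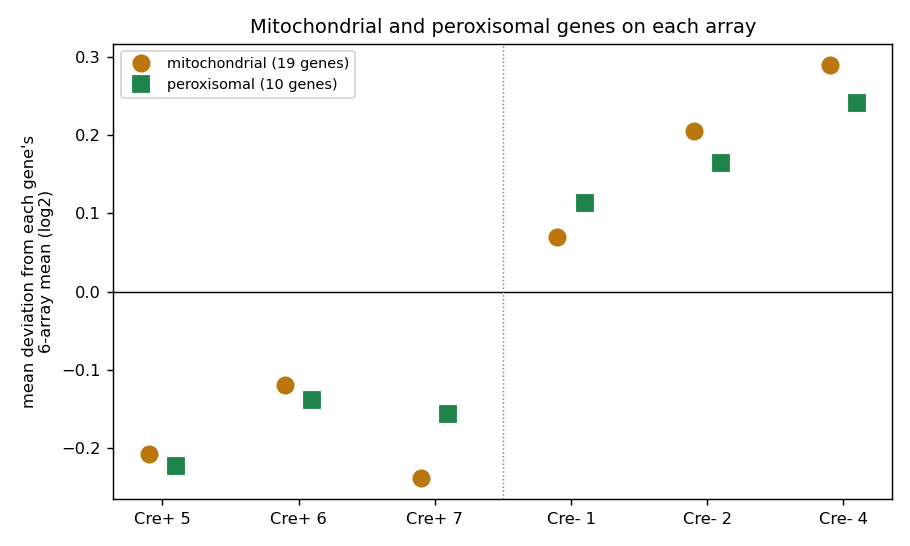
Mean deviation of the 19 mitochondrial (circles) and 10 peroxisomal (squares) genes from each gene's own mean over the 6 arrays, on the log2 scale, for each array. All points of the Cre+ arrays lie below 0 and all points of the Cre- arrays above it, Cre- 1 lowest among the Cre- arrays at 0.07 and 0.11.

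Within each group the mitochondrial genes were ranked by array, with no share over all probe sets computed. Cre+ 6 was the highest Cre+ array for 13 of the 19 and Cre+ 7 the lowest for 11, while Cre- 4 was the highest Cre- array for 12 and Cre- 1 the lowest for 13. The 10 peroxisomal genes did not share the low place of Cre+ 7. Among them Cre+ 5 was the lowest Cre+ array for 5 and Cre+ 7 for 4. Cre- 1 was the lowest Cre- array for 5 of them and the highest for 4. Cre+ 7 and Cre- 1 also stood apart from their groups in marker genes. On Cre+ 7 the summed intensity of 8 T and B lymphocyte markers was 1119, against 279.8 and 475 on the other Cre+ arrays, and that of 5 general epithelial markers 2679, against 3327 and 3452. On Cre- 1 the summed intensity of the same lymphocyte markers was 1889.6, against 447 and 383 on the other Cre- arrays, that of 8 fibroblast markers 1166, against 709 and 488, and that of the epithelial markers 3029.8, against 4481 and 5129. The part of these differences in the low mitochondrial readings of Cre+ 7 and Cre- 1 was not tested.

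The promoters of 4 of the genes that fell are shown, chosen after their values were seen from those with a window in the table used (Acaa2 and Hsd17b4 have no entry in it), because PPAR receptors bind a direct repeat of the hexamer AGGTCA with 1 base between its copies (DR1) that many genes of these routes are known to carry in rodents. RefSeq windows from 250 bases before to 50 bases after the start (build GRCm38.p6) were held for 31 members, in 33 windows. Both strands were searched. The exact repeat was in 0 of the 33 windows and in 0.0396% of all 32851 windows, and a form with up to 2 mismatches was in 4 (12.1%), against 3.86% of all windows. These 4 were in Acox2, Echs1, Etfa and Slc25a20, of which only Slc25a20 was called. The single hexamer AGGTCA was in 5 member windows (15.2%), against 16.3% of all, TNAAGGTCA (which contains the hexamer and is bound by the ERR receptors) in 0, against 1.28%, and TATAAA placed 40 to 20 bases before the start in 0, against 1.99%. The GC box GGGCGG was in 24 windows (72.7%), against 35.7% of all, and the median window held 17 CpG dinucleotides, against 7 over all windows. Of the genes that fell, Cpt2 and Abcd3 have windows that are not shown. That of Cpt2 holds 3 GC boxes, and neither window of Abcd3 holds any of these motifs. Matches are letters in a window and were not tested for binding, and sites farther from the start were not searched.

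In the windows below, each written 5′ to 3′ on the gene's own strand, capitals mark GGGCGG or its reverse complement CCGCCC, the hexamer (as TGACCT in Cpt1a) and the 13-base repeat with 2 mismatches (in Slc25a20, from base 7 to base 19 after the start). Ehhadh is the gene with the largest fall and has 2 GC boxes and no AGGTCA in its window, chr16:21787785-21788084, minus strand. Cpt1a (chr19:3323051-3323350, plus strand) and Slc25a20 (chr9:108661886-108662185, plus strand) head the carnitine shuttle. Hadhb (chr5:30155003-30155302, plus strand) lies head to head with Hadha, whose window on the minus strand overlaps that of Hadhb by 228 bases and whose start is 273 bases away.
Ehhadh: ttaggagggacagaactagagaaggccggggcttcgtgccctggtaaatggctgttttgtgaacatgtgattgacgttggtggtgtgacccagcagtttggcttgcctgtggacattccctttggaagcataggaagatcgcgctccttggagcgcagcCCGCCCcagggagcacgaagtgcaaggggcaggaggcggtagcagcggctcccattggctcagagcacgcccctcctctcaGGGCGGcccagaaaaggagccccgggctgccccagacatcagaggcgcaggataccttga
Cpt1a: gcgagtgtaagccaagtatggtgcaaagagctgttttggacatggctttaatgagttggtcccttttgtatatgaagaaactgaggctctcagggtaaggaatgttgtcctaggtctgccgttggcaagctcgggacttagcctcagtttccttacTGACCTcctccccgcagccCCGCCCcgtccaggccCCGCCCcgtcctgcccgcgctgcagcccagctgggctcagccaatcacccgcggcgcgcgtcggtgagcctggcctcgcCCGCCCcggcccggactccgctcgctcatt
Slc25a20: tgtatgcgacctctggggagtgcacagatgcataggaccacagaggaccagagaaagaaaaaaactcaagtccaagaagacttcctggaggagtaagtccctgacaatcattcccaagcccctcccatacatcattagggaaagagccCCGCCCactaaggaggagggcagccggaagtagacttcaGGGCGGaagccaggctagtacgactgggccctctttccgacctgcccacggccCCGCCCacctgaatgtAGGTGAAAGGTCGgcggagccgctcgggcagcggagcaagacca
Hadhb: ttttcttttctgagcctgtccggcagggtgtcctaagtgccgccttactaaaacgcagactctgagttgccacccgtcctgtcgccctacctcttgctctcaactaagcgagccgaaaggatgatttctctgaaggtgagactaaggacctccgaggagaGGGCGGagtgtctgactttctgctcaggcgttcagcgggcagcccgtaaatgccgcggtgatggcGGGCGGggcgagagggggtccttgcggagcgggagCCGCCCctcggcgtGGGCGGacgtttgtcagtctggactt

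The Hadha and Hadhb readings described above thus came from a pair of genes that share most of a promoter window, with log2 changes of -0.30 (SE 0.08) and -0.50 (SE 0.08).

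Genes that feed or surround the oxidation routes but are not among the 38 were compared in the same fit. Of 79 tested genes from 7 lists, each counted once, 13 fell and 0 rose (31 and 2 at an unadjusted p under 0.05), 61 had a change below 0 and the median was -0.16. Over all tested probe sets, 2.14% fell and 2.03% rose (9.83% and 10.2% at an unadjusted p under 0.05). A change below 0 was found in 48.4% of them. The same shares apply to the counts of the single lists and of the markers below. The lists were drawn up with earlier results of these data known. The falls were most numerous in the list of fatty acid uptake, acyl-CoA activation and thioesterase genes, 6 of 15 tested genes with a median of -0.42. Fabp3, a cytosolic fatty acid carrier, read 300.3, 361 and 795 in Cre+ cells, against 1835, 1121 and 1279 in Cre- cells, a fall of 1.64 (SE 0.35, adjusted p = 0.0471). Slc27a1, a fatty acid transport protein, read 121, 126 and 95.4 in Cre+ cells, against 184, 212 and 245 in Cre- cells, a fall of 0.90 (SE 0.14, adjusted p = 0.0219). The acyl-CoA synthetase genes Acsl4 and Acsl1 fell by 0.81 (SE 0.12, adjusted p = 0.0190) and 0.44 (SE 0.08, adjusted p = 0.0352), the scavenger receptor gene Cd36 by 0.78 (SE 0.15, adjusted p = 0.0337) and the thioesterase gene Acot1 by 0.87 (SE 0.14, adjusted p = 0.0240). Acot1 has close relatives among the thioesterases, and whether its probes also bind those was not tested.

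Malonyl-CoA, made by the acetyl-CoA carboxylases, inhibits Cpt1a, and of 3 genes that set its level 1 fell. Acaca, the cytosolic carboxylase, read 436, 421 and 554 in Cre+ cells, against 829, 648 and 785 in Cre- cells, a fall of 0.68 (SE 0.13, adjusted p = 0.0369). The other genes of this list of 3 were not called. Acacb, the carboxylase of the mitochondrial surface, had a change of -0.34 (SE 0.10, adjusted p = 0.118) and Mlycd, which destroys malonyl-CoA, one of -0.34 (SE 0.08, adjusted p = 0.0637), each without overlap between the groups.

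Beyond the members, 3 of 18 tested genes of peroxisomal oxidation fell, with a median of -0.14. These were the membrane protein genes Pxmp4 (-0.68, SE 0.12, adjusted p = 0.0307) and Pxmp2 (-0.46, SE 0.10, adjusted p = 0.0461) and Eci2 (-0.44, SE 0.09, adjusted p = 0.0463), the peroxisomal isomerase gene, listed on the array as Peci. Of 15 peroxins, the proteins that build peroxisomes, 1 fell, Pex16 (-0.46, SE 0.09, adjusted p = 0.0332), with a median of -0.16. None of 6 ketone body genes passed, with Oxct1 at -0.46 (SE 0.17, adjusted p = 0.196), and 1 of them was at an unadjusted p under 0.05.

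Among 10 tested genes known to be under PPAR control in other tissues, 2 fell, with a median of -0.42. They were Acot1 and Plin2, the lipid droplet coat gene, which read 1883, 1849 and 1899 in Cre+ cells, against 2877, 2995 and 3496 in Cre- cells, a fall of 0.73 (SE 0.08, adjusted p = 0.0111). Angptl4, an inhibitor of lipoprotein lipase, and Pdk4, a kinase that shuts off pyruvate dehydrogenase, are named after their values were seen. Angptl4 read 53.2, 74.5 and 63.6 in Cre+ cells, against 239.9, 87.3 and 235 in Cre- cells (-1.43, SE 0.37, adjusted p = 0.0763), and Pdk4 read 30.8, 32.7 and 33.8 in Cre+ cells, against 53.6, 35.4 and 66.9 in Cre- cells (-0.63, SE 0.21, adjusted p = 0.138). In both, Cre- 2 was the lowest Cre- array and close to the Cre+ arrays. Of 14 other regulators 1 fell, Lpin1 (-0.43, SE 0.09, adjusted p = 0.0473), a phosphatidate phosphatase that also acts with PPAR alpha.

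**Figure D4:**
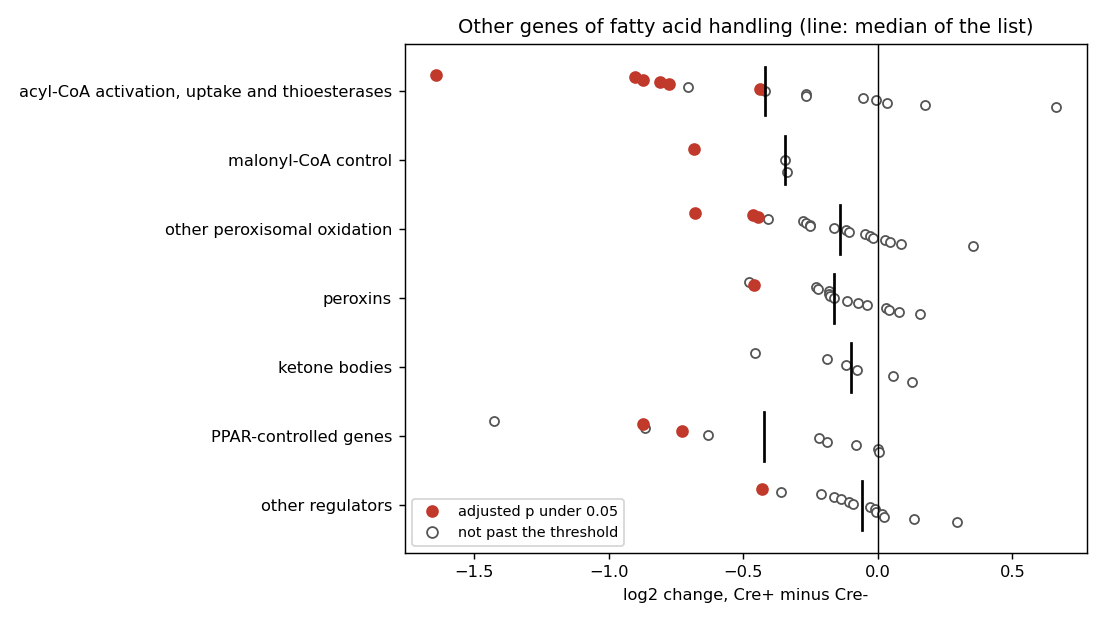
Log2 change (x axis, Cre+ minus Cre-, 3 mice per group) of each tested gene in the 7 lists of neighbouring genes, filled where the adjusted p was under 0.05, with a line at each list's median. All 7 medians lie left of 0, from -0.42 (PPAR-controlled genes, and acyl-CoA activation, uptake and thioesterases) to -0.06 (other regulators), and Acot1 appears in 2 lists.

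The samples are cell suspensions of the gland rather than sorted cells, and in bulk samples fewer cells of a type and less RNA per cell cannot be told apart. The label calls them mammary alveolar cells, and all 10 luminal alveolar markers passed the filter level, as did all basal, fibroblast, endothelial, macrophage and lymphocyte markers. Luminal alveolar markers were lower in the same Cre+ samples as the oxidation genes. Of 10 such markers 9 fell, all but Csn2, and their summed intensity was 13305 to 15608 in Cre+ cells, against 22005 to 25519 in Cre- cells. Of 9 basal myoepithelial markers 4 rose, with sums of 4485 to 4848 in Cre+ cells, against 2547 to 3717 in Cre- cells. Of 8 fibroblast markers 2 rose (sums of 1089 to 1447 in Cre+ cells, against 488 to 1166 in Cre- cells) and of 7 macrophage markers 2 rose (669 to 763 in Cre+ cells, against 403 to 667 in Cre- cells). None of 8 luminal hormone-sensing, 6 endothelial or 8 lymphocyte markers passed in limma (3, 1 and 0 of them at an unadjusted p under 0.05, all of these higher in Cre+ cells). The part of these differences in the lower oxidation genes was not tested.

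Adipocytes and muscle are rich in oxidation enzymes, so their markers were set beside the members. Of 9 tested white adipocyte markers none passed in limma (at an unadjusted p under 0.05, 3 were higher and 1 lower), Lep was below the filter level, and the sums of all 10 were 979 to 1379.7 in Cre+ cells, against 780.0 to 1088 in Cre- cells. These sums mostly reflect Fabp4 (540, 639 and 824 in Cre+ cells, against 616, 403 and 288 in Cre- cells) and Pnpla2. Cfd had the largest change of the list (1.16, SE 0.41, adjusted p = 0.169). It read 33.3, 119 and 93.8 in Cre+ cells, against 33.5, 30.2 and 32.8 in Cre- cells. Its groups overlapped at Cre+ 5, while Cre+ 6 and Cre+ 7 lay well above every Cre- array. Adipoq read 22.2, 24.2 and 26.4 in Cre+ cells, against 21.3, 22.2 and 21.8 in Cre- cells, near the filter level of 22.4. Plin1, Plin4, Cidec and Retn were also dim, at 33.6 or less on every array. Of 7 brown adipocyte markers, Ucp1, Dio2 and Elovl3, among its defining genes, were below the filter level on average, and 1 of the 4 tested fell, Cidea, which mammary alveolar cells also express (-0.86, SE 0.11, adjusted p = 0.0134). The sums of all 7 were 199 to 210.3 in Cre+ cells, against 237 to 248.6 in Cre- cells. None of 7 tested skeletal muscle markers passed in limma (0 at an unadjusted p under 0.05), and the sums of all 9 listed, with Myh4 and Myh1 below the filter level, were 284 to 295 in Cre+ cells, against 269.8 to 293 in Cre- cells. General epithelial markers, 5 in all, gave 2679 to 3452 in Cre+ cells, against 3029.8 to 5129 in Cre- cells, and none passed (2 lower at an unadjusted p under 0.05).

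**Figure D5:**
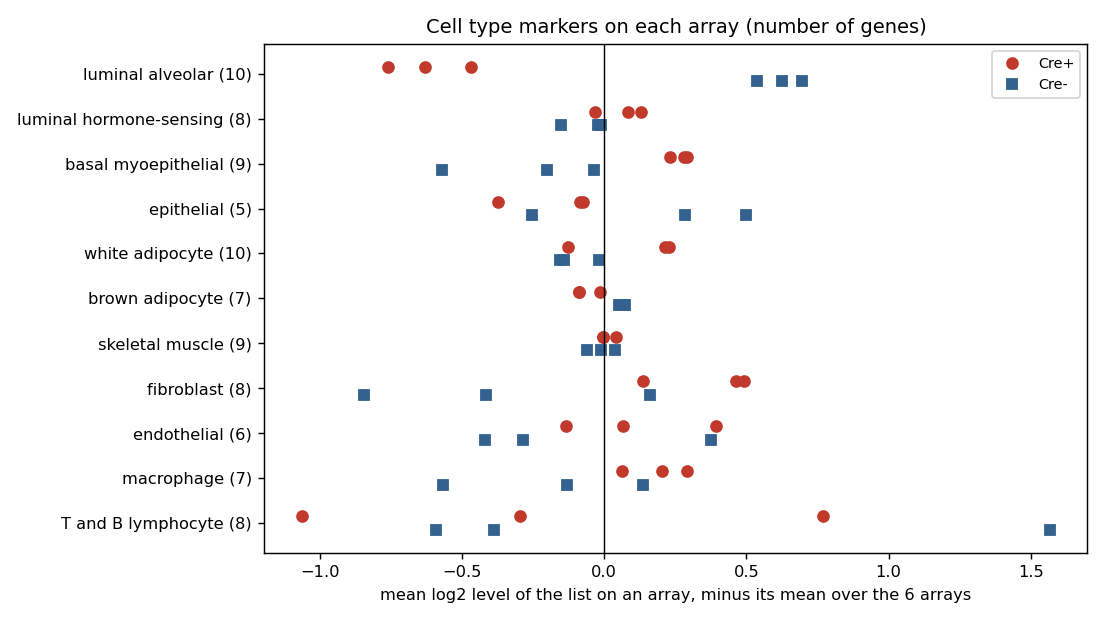
Mean log2 level of each marker list on each array minus its mean over the 6 arrays (x axis), with Cre+ arrays as circles and Cre- arrays as squares, and the number of genes in brackets. Luminal alveolar markers and, by a narrow gap, brown adipocyte markers separate the groups with Cre+ on the left. Basal markers separate them with Cre+ on the right, and the lymphocyte, endothelial and white adipocyte markers overlap.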

How the data were processed

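Arrays from 3 Cre+ and 3 Cre- mice were grouped by their titles. The deposited intensity values were made by robust multi-array averaging over core exons in Expression Console, per the labels; its version, the build and the annotation are not given in these sources. They are linear (18.7 to 10919), and both deposited tables held the same values. The ratio and p-value columns deposited by the authors equalled the ratio of the Cre+ to the Cre- mean (100% within 0.01) and an equal-variance test on linear intensity (100% within 2e-04). From the deposited linear values, log2 was taken here. No value lies below 18.7, so changes of dim genes may be understated. Of 22984 probe sets naming 1 gene, 16921 whose mean reached the 30th percentile (linear 22.4) were tested with limma 3.58.1 in R 4.3.3 (intensity trend, two-sided, Benjamini-Hochberg). The filter used the mean of all 6 arrays without regard to group, although high readings in 1 group can carry a probe set past it. A gene with several probe sets was represented by that with the highest mean. The fit was tested on simulated data. The number of arrays limits the precision. Each limma p-value sets a difference against the spread between mice, which the fit moderates across probe sets by intensity. Changes were taken within a probe set. Levels of different probe sets were compared only to choose that for each gene, and were summed or averaged over the marker lists, where bright probe sets weigh most in a sum. Values per array were given for members past the threshold and for the 3 largest changes of each role, and for some further members of a role. Other genes were named where they passed or had the smallest p of their list, and any others are marked in the text. The members, gene lists and alternatives were chosen with earlier results of these data known.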

Additional observations from a re-analysis of the deposited data

How the results depend on the processing

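The number of members lower in Cre+ was 8 with all arrays. It was 16 with array weights (1437 probe sets called over all genes, against 706), 13 without Cre- 1 and Cre+ 7 together (952 probe sets called), and 1 to 12 when each array was left out in turn. The number higher was 1 and ranged from 0 to 1, and the calls over all genes from 41 to 780 with each array left out in turn. With the authors' deposited p-values, adjusted over the same probe sets, 0 members were lower, 0 higher and 34 probe sets were called in all. The peroxisomal median of -0.38 was -0.46 with 16 subtracted from every intensity and -0.29 with Crat and Ech1 counted as peroxisomal (Acad11 has no value); leaving out arrays gave -0.41 to -0.35. The mitochondrial median of -0.37 ranged from -0.49 to -0.30 over these omissions. No filter, quantile normalization, median centring, no trend, robust variances and the dimmer Hadhb probe set left 8 members lower and 1 higher. Over the 33 genes and 17 settings, 497 results kept their side of the threshold, 46 calls were lost and 18 gained. Part of the 497 could not change, because the second deposited set of values was identical and the dimmer probe set differs only for Hadhb. The lost calls could come only from the 8 members lower and 1 higher, and most results belong to genes not called. No called gene changed sign. No paired analysis was possible because the mice of the groups share no number. Dim genes such as Ppargc1a are limited by signal over background.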
